A study of Sus scrofa with 599 samples.

Results

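The genes described here encode 10 inflammatory and regulatory cytokines of adipose tissue (AT): TNF, IL6, IL18, IL1B, IL10, IL1RN, TGFB1, IL15, TNFSF12 and CSF1. They are a list of symbols, with no threshold on a measured value. Of the 10, 8 were matched to a row among the 21280 protein-coding genes (PCGs) of the expression tables. IL1B and IL1RN were not matched to a row, so their expression is not analysed here, and for IL1B only the chromatin at its annotated position is described. Female Bama pigs, 2 years old at the start, were compared in 3 nutritional groups. NC animals received normal feed throughout. WG animals received high-fat feed over 22 weeks. WL is made up of 10 animals drawn at random from those on the high-fat feed, which then spent 12 weeks on 10% of the normal caloric intake. The groups are therefore different animals, and a comparison of WL with NC sets formerly obese pigs against pigs that were never fed the high-fat diet. It bears on whether expression changed by obesity persists once weight is lost. Persistence cannot be told apart here from the caloric restriction itself, from age or from remaining excess weight. In the paper, WL pigs still weighed more on average than NC pigs and were 12 weeks older than WG pigs.

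RNA was sequenced from 3 visceral ATs, greater omentum (GOM), mesenteric fat (MAD) and retroperitoneal fat (RAD), and from 1 subcutaneous AT, the upper layer of backfat (ULB). The numbers of libraries in NC, WG and WL were 9, 45 and 10 in GOM, 12, 36 and 10 in MAD, 12, 39 and 10 in RAD, and 5, 38 and 10 in ULB, which gives 236 libraries in all. The labels do not say whether libraries with the same number in different ATs came from the same pig. In the paper the ATs were taken from each carcass, so libraries of different ATs share animals. The tests across ATs below treat them as independent unless a block is named. Counts on PCGs ranged from 3337098 to 22939420 per library with a median of 16791659. The 6 adipocyte markers summed to between 3686 and 32862 TPM over the libraries, TPM being read counts scaled for transcript length and library size. In 40 of the 236 libraries, PCGs took under 88% of the TPM, the rest being non-coding transcripts, and these made up 7 of 9 in NC GOM and 6 of 10 in WL GOM, 2 of 12 and 6 of 10 in MAD, 6 of 12 and 2 of 10 in RAD, and 2 of 5 and 3 of 10 in ULB, but only 6 of the 158 in WG. A library of GOM in WG (replicate 35, 3337098 counts) stood apart from its group, with TNF, IL10 and IL18 listed at 0 and TNFSF12 at 189 TPM. In MAD, 4 libraries carried far more of the 5 B cell markers than any other: replicates 1, 6 and 7 of WL with 194 to 579 TPM and replicate 31 of WG with 312 TPM, against at most 55.5 TPM in any other library. Results in MAD are given with and without these 4.

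Cytokines are small secreted or membrane-bound proteins through which fat cells, resident macrophages and lymphocytes signal to each other. In obese AT, macrophages gather around dying fat cells and release TNF and IL6, while inflammasomes, which activate the protease CASP1, turn the precursors of IL18 and IL1B into their active forms. IL10 and TGFB1 restrain inflammation, TGFB1 also drives fibrosis, and IL1RN blocks the receptor that IL1B uses. IL15 sustains natural killer and memory T cells, TNFSF12 (also called TWEAK) acts through the receptor TNFRSF12A in tissue repair, and CSF1 is the growth factor of macrophages.

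The 9 genes with an annotated start were searched for 6 short promoter motifs in the 250 bases before it, on both strands, in the RefSeq annotation of Sscrofa11.1. The kappa B motif bound by NF-kappa B was found in IL6 (as GGGATTTTCC) and, on the other strand, in CSF1 (as GGAAAGTCCC), and in 0.394% of the 19531 windows of all genes. A TATA box (TATAAA), held by 9.76% of all windows, was found in TNF and IL1B. The C/EBP motif (TTNNGNAAT) was found in IL6, IL1B and CSF1 and in 8.92% of all windows, the AP-1 motif (TGANTCA) in CSF1 and in 5.25%, the CCAAT box (CCAAT) in IL6, IL1B and CSF1 and in 31.9%, and the cyclic AMP response element (TGACGTCA) in none of the 9 and in 1.70%. IL10, IL18, IL15, TGFB1 and TNFSF12 held none of the 6 motifs in this window. Of these, TGFB1 and TNFSF12 held 32 and 30 CpG dinucleotides, against a median of 12.0 over all windows. Windows of 4 genes are printed because they carry the contrast between promoters with the kappa B or TATA motif and a promoter rich in CpG. The windows lie on Sscrofa11.1 at chr9:91506171-91506420 (IL6, plus strand), chr4:110198233-110198482 (CSF1, minus strand), chr7:23699385-23699634 (TNF, plus strand) and chr6:49348643-49348892 (TGFB1, minus strand). Each is written 5′ to 3′ on the strand of its gene, with the motifs found in capitals:
IL6: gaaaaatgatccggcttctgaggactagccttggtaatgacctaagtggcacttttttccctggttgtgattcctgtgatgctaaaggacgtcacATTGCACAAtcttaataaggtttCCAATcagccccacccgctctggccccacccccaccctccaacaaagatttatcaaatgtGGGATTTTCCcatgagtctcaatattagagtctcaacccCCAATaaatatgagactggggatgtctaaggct
CSF1: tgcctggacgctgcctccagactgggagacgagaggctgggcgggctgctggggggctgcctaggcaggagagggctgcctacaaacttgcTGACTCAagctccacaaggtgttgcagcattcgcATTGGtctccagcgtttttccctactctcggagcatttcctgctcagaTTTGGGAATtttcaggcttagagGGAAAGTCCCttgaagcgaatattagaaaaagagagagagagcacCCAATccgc
TNF: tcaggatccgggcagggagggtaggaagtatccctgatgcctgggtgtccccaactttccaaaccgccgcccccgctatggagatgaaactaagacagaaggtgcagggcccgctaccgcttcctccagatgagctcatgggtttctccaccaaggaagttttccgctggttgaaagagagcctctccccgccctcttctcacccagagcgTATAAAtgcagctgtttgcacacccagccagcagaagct
TGFB1: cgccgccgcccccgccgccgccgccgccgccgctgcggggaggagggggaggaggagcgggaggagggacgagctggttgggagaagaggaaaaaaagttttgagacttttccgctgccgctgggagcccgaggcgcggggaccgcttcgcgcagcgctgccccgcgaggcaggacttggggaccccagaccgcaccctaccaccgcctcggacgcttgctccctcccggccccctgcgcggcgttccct

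Levels are given in TPM, which is scaled for transcript length, and changes as log2 fold changes ± standard error (SE) from edgeR's quasi-likelihood test on the estimated counts, with p-values adjusted by Benjamini-Hochberg over all PCGs tested. A gene was called when its adjusted p was below 0.05 and its fold change above 1.5. The fold changes are scaled by TMM and need not equal the ratio of TPM medians. The tests measure the spread between the deposited samples, and since whole tissue was sequenced, fewer cells of a type and less RNA per cell cannot be told apart. TNF, IL6 and IL10 were among the markers of inflammation that the study itself followed after weight loss. It also named IL18 and TNFSF12 as inflammatory markers. The direction of these genes is therefore not independent evidence. The TPM ranges of the nutritional groups overlapped for every cytokine gene in every comparison of expression below.

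**Figure D1:**
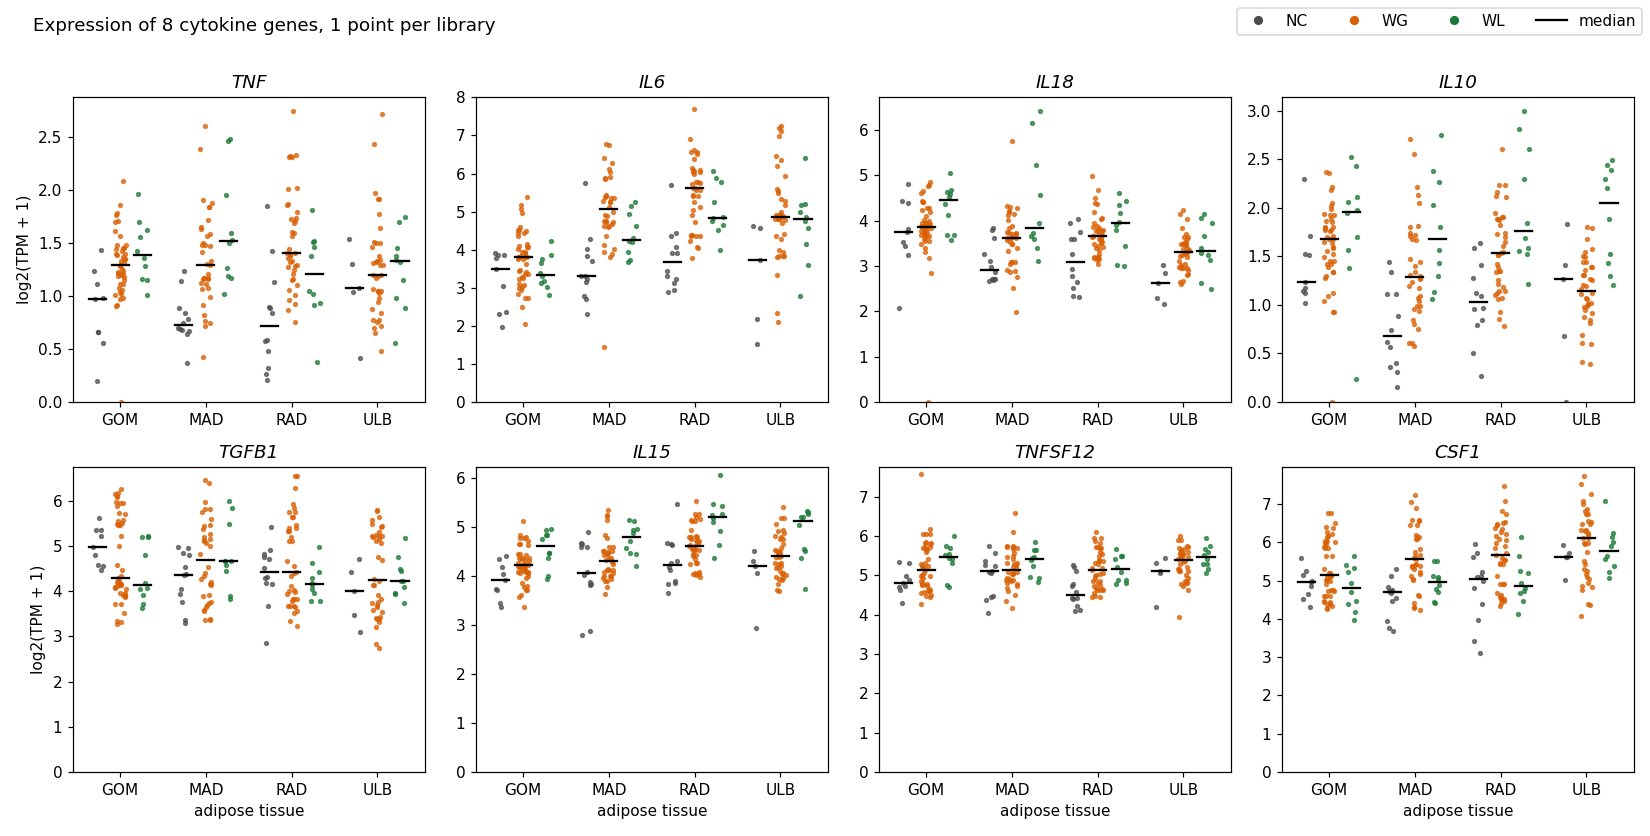
Expression of 8 cytokine genes as log2(TPM + 1) on the vertical axis, by AT and nutritional group, with 1 point per library and a bar at the group median. TNF and IL10 are the least expressed, the WG libraries spread most in TGFB1, IL6 and CSF1, and the highest IL18 values are in WL MAD.

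The genes called in WL against NC were counted in each AT. Mesenteric fat had 3 cytokine genes higher in WL (TNF, IL18 and IL10) of the 8 tested, retroperitoneal fat had 2 (IL10 and IL6), omental fat had 1 lower (TGFB1), and backfat had 0 (2, IL15 and IL18, at an unadjusted p below 0.05, and 0 with DESeq2). Of all PCGs tested, 15.2% rose and 17.8% fell in MAD, 10.2% rose and 16.6% fell in RAD, 15.4% rose and 20.7% fell in GOM, and 5.39% rose and 9.37% fell in ULB. The median log2 change of the 8 genes was 0.49 in MAD, 0.47 in RAD, 0.40 in ULB and 0.25 in GOM, beside medians of all PCGs from -0.03 to -0.00. In GOM and RAD, TNF entered the tests of WL and of WG against NC only through WL or WG, since under 80% of the NC libraries there were above 0.5 TPM, and so did IL10 in MAD. A gene that passes only through the other group has to be higher there, so the counts against NC are a description.

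**Figure D2:**
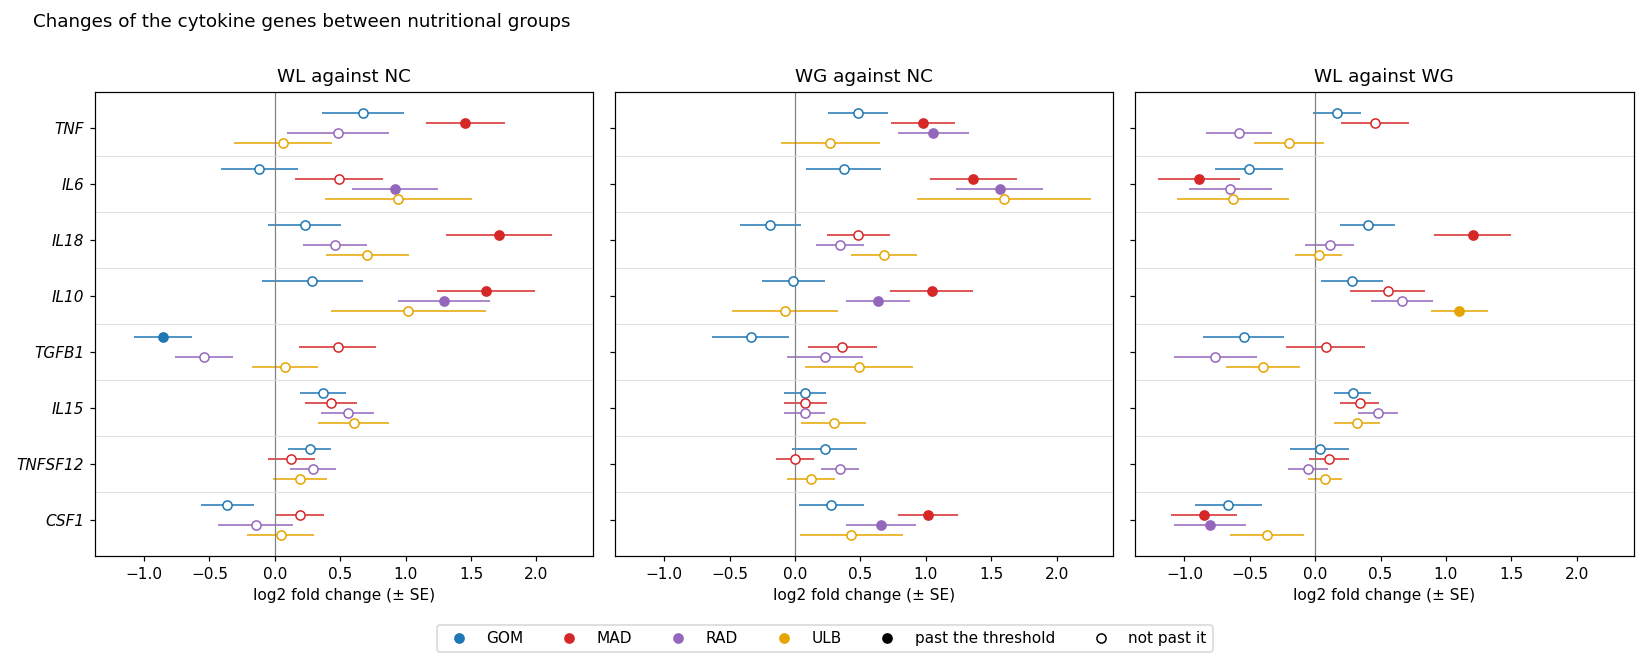
Log2 fold change ± SE of 8 cytokine genes in each AT for WL against NC, WG against NC and WL against WG, with filled points for genes past the threshold. IL6 and CSF1 lie mostly to the right in WG against NC and to the left in WL against WG, while IL18 and IL10 in MAD lie farthest right in WL against NC.

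TNF (ENSSSCG00000001404, chr7:23699635-23702393), which blunts insulin signalling in fat cells, was expressed at low levels and rested on 0 to 170 estimated counts per library. Its levels in MAD were 0.286 to 1.35 TPM in NC (median 0.651), 0.338 to 5.11 in WG (1.46) and 1.03 to 4.61 in WL (1.86). All 10 WL libraries lay above the NC median and 7 lay above the highest NC library. The log2 change was 1.46 ± 0.30 in WL against NC (adjusted p = 0.00067) and 0.98 ± 0.25 in WG against NC (adjusted p = 0.00436). In RAD, where it passed the filter only through WG, TNF was also called higher in WG than in NC (1.06 ± 0.27, adjusted p = 0.00209), with 0.153 to 2.60 TPM in NC (median 0.646) and 0.687 to 5.70 in WG (1.65). In WL RAD it stood at 0.300 to 2.51 TPM (median 1.33), and neither the change from NC (0.48 ± 0.39, adjusted p = 0.332) nor that from WG (-0.58 ± 0.25, adjusted p = 0.111) was called. In GOM the medians were 0.962, 1.44 and 1.63 TPM in NC, WG and WL, with no call (0.67 ± 0.32 in WL against NC, adjusted p = 0.0785). The 5 NC libraries of ULB had 0.338, 1.06, 1.11, 1.47 and 1.91 TPM, and the WL libraries 0.472 to 2.35 (median 1.52). They lay over each other, with a log2 change of 0.06 ± 0.37.

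IL6 (ENSSSCG00000020970, chr9:91506421-91510830), which fat cells and macrophages release and which signals through IL6ST, had the largest fitted rise of the 8 genes from NC to WG in MAD, RAD and ULB. In RAD it stood at 6.36 to 51.2 TPM in NC (median 11.9), 12.8 to 207 in WG (48.4) and 14.9 to 66.2 in WL (27.6). It rose by 1.56 ± 0.33 in WG against NC (adjusted p = 0.00024), and in WL it was still 0.92 ± 0.33 above NC (adjusted p = 0.0291). In MAD the medians were 8.96 TPM in NC, 32.4 in WG and 18.1 in WL. There IL6 rose by 1.36 ± 0.33 in WG (adjusted p = 0.00332), was lower in WL than in WG (-0.89 ± 0.32, adjusted p = 0.028), and in WL was not called against NC (0.49 ± 0.33, adjusted p = 0.235). The highest NC libraries of MAD and RAD, at 52.8 and 51.2 TPM, lay above the WG medians. In ULB the 5 NC libraries had 1.85, 3.54, 12.3, 22.6 and 23.6 TPM, against medians of 28.1 in WG and 27.1 in WL. The fitted changes were 1.595 ± 0.67 in WG and 0.94 ± 0.56 in WL, with errors wider than in RAD, and were not called (adjusted p = 0.216 and 0.249). In GOM the medians lay close together, at 10.2, 12.9 and 9.16 TPM in NC, WG and WL, with log2 changes of 0.37 ± 0.29 in WG and -0.12 ± 0.29 in WL.

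IL18 (ENSSSCG00000015037, chr9:39839959-39861258), made as a precursor that CASP1 cleaves, was not called in any AT in WG against NC. Its median TPM in NC and WL was 12.5 and 20.9 in GOM, 6.60 and 13.4 in MAD, 7.62 and 14.4 in RAD, and 5.20 and 9.15 in ULB, but only the change in MAD passed the test. There it was 1.72 ± 0.41 above NC (adjusted p = 0.00184) and 1.20 ± 0.30 above WG (adjusted p = 0.002). The fitted log2 changes from NC to WL were 0.23 ± 0.28 in GOM (adjusted p = 0.511), 0.46 ± 0.24 in RAD (adjusted p = 0.135) and 0.71 ± 0.32 in ULB (adjusted p = 0.127). The NC libraries of MAD held 5.39 to 13.4 TPM, the WG libraries 2.97 to 52.8 and the WL libraries 7.65 to 84.2. The 4 highest MAD libraries were those with many B cell markers: 36.7, 70.2 and 84.2 TPM in WL and 52.8 TPM in WG. The other 7 WL libraries had 7.65 to 22.6 TPM (median 11.7).

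IL10 (ENSSSCG00000015652, chr9:67400727-67405941), which macrophages and regulatory T cells release to damp inflammation, was low in every AT, on 0 to 116 estimated counts per library, and higher in WL than in NC in MAD and RAD. In MAD its levels were 0.112 to 1.73 TPM in NC (median 0.607), 0.494 to 5.54 in WG (1.45) and 1.09 to 5.75 in WL (2.22). The log2 change was 1.62 ± 0.37 in WL against NC (adjusted p = 0.00157) and 1.05 ± 0.32 in WG against NC (adjusted p = 0.0168), and in both it passed the filter only through the group set against NC. In RAD it went from 0.207 to 2.12 TPM in NC (median 1.04) through 0.720 to 5.09 in WG (1.89) to 1.32 to 6.97 in WL (2.41), and 6 of the 10 WL libraries lay above the highest NC library. There the log2 change was 1.29 ± 0.35 in WL (adjusted p = 0.00511) and 0.63 ± 0.25 in WG (adjusted p = 0.0408). In ULB, IL10 was called in WL against WG, and not in either comparison with NC. It was 0.310 to 2.49 TPM in WG (median 1.21) and 1.31 to 4.64 in WL (median 3.16), a log2 change of 1.10 ± 0.22 (adjusted p = 0.000233). The 5 NC libraries of ULB had 0, 0.602, 1.41, 1.67 and 2.57 TPM, which left a wide error on the change to WL (1.02 ± 0.59, adjusted p = 0.236). In GOM the medians were 1.35, 2.20 and 2.89 TPM in NC, WG and WL, but no fold change was called (0.29 ± 0.38 in WL, adjusted p = 0.552).

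TGFB1 (ENSSSCG00000003017, chr6:49332169-49348642), which drives matrix deposition and restrains lymphocytes, was the only one of the 8 called lower in WL than in NC. In GOM it stood at 21.3 to 47.7 TPM in NC (median 30.2), 8.68 to 76.2 in WG (18.5) and 11.3 to 36.5 in WL (16.5), and was -0.86 ± 0.22 in WL against NC (adjusted p = 0.00258). It was not called in RAD (-0.54 ± 0.22, adjusted p = 0.0554), MAD (0.48 ± 0.29, adjusted p = 0.184) or ULB (0.08 ± 0.25, adjusted p = 0.856). TGFB1 was also the 1 cytokine gene whose change from NC to WL differed between ATs (edgeR quasi-likelihood F test of the interaction, adjusted p = 0.0376), as did 9.52% of all PCGs. IL18 and TNF missed this threshold (adjusted p = 0.0774 and 0.190), so their calls in MAD are not shown to differ from the other ATs. Without the 3 WL libraries rich in B cell markers the interaction of TGFB1 was not called (adjusted p = 0.332), nor was it called with the library set (at least or under 88% of TPM on PCGs) as a term (adjusted p = 0.130).

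TGFB1 also spread widely within WG. Of the 158 WG libraries, 71 lay above 25 TPM, a level chosen after the values were seen, and the highest in each AT were 54.5 to 93.2 TPM. Among the 45 library numbers of WG with 2 or more ATs, 16 had every AT above this level, 24 had none and only 5 had some above and some not. In NC, 1 of 12 numbers had every AT above, 1 had none and 10 had some, and in WL the split was 0, 1 and 9 of 10 numbers. Thus the libraries of WG that shared a number mostly lay on the same side, and those of NC and WL mostly did not. TGFB1 also moved with library measures. Over the 158 WG libraries, Spearman's rho of its TPM was 0.57 with the share of TPM on PCGs and 0.56 with the GC tilt, which is the mean log2(TPM + 1) of GC-rich genes minus that of GC-poor genes. TNFSF12 had 0.59 and 0.64, and CSF1 had 0.56 and 0.54. The part of these measures in the spread was not tested.

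IL15 (ENSSSCG00000009051, chr8:85666963-85740980), the survival factor of natural killer cells, was called in no comparison, with fitted changes from NC to WL above 0 in each AT. Its NC and WL medians in TPM were 14.2 and 23.5 in GOM, 15.7 and 26.7 in MAD, 17.7 and 36.03 in RAD, and 17.4 and 33.7 in ULB. In the same order, the log2 changes were 0.37 ± 0.17, 0.43 ± 0.20, 0.56 ± 0.20 and 0.60 ± 0.27. In RAD its adjusted p of 0.0303 was below 0.05 but its fold change of 1.47 was below the limit of 1.5, and in the other ATs the adjusted p was 0.0749 to 0.124. Changes from NC to WG were smaller, between 0.07 and 0.30.

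TNFSF12 (ENSSSCG00000040188, chr12:52843026-52853328), the ligand of TNFRSF12A, was called in none of the 12 comparisons. Its group medians lay between 21.7 TPM in NC RAD and 43.4 TPM in WL GOM and WL ULB, and its largest fitted change was 0.34 ± 0.15 in WG against NC in RAD (adjusted p = 0.0601).

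CSF1 (ENSSSCG00000037449, chr4:110178466-110198232), on which tissue macrophages depend, was higher in WG than in NC and lower in WL than in WG in MAD and RAD. In MAD it was 11.7 to 38.6 TPM in NC (median 25.0), 17.7 to 151 in WG (46.7) and 20.4 to 44.9 in WL (30.3). It was 1.02 ± 0.23 higher in WG than in NC (adjusted p = 0.00143), and -0.85 ± 0.25 in WL against WG (adjusted p = 0.00865). In RAD the medians were 32.2, 50.2 and 28.3 TPM in the same order, with changes of 0.66 ± 0.27 in WG against NC (adjusted p = 0.0483) and -0.80 ± 0.28 in WL against WG (adjusted p = 0.0437). WL did not differ from NC past the threshold in any AT (log2 changes from -0.36 to 0.19). In GOM and ULB the WG median was also the highest of the 3, at 30.5, 34.7 and 27.3 TPM in GOM and 48.2, 68.2 and 53.9 in ULB, without a call.

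Counted by comparison, 4 of the 8 cytokine genes rose from NC to WG in MAD and the same 4, TNF, IL6, IL10 and CSF1, rose in RAD, while 0 were called in GOM or ULB. IL10 in MAD and TNF in RAD are among those that passed the filter only through WG. In RAD, where 6 of 12 NC libraries but 0 of 39 WG libraries had under 88% of TPM on PCGs, the count was 1 (IL6) both with the library set as a term and with only libraries of at least 88%. At an unadjusted p below 0.05 there were 1 in GOM (TNF) and 2 in ULB (IL6 and IL18), and DESeq2 called 0 in both. Of all PCGs tested, 5.38% rose and 5.29% fell in MAD, 7.10% and 9.60% in RAD, 12.2% and 14.5% in GOM, and 0.507% and 1.87% in ULB. These comparisons share their NC libraries with those of WL against NC. From WG to WL, IL18 rose and IL6 and CSF1 fell in MAD, CSF1 fell in RAD, IL10 rose in ULB, and 0 of the 8 were called in GOM, where 2 (IL15 and CSF1) had an unadjusted p below 0.05 and DESeq2 called 1 (CSF1). The background shares were 8.26% higher and 9.17% lower in MAD, 2.24% and 4.13% in RAD, 3.22% and 4.90% in ULB, and 2.55% and 2.71% in GOM.

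The MAD libraries with many B cell markers moved with these results. In WL, replicates 1, 6 and 7 held 367 to 710 TPM of the 7 T and NK cell markers measured, against 77.9 to 116 in the other 7 libraries, and their macrophage markers summed to 1493 to 2052 TPM against 651 to 2097. Their TGFB1 was 43.6 to 63.0 TPM against 13.3 to 24.4, their TNF 2.89 to 4.61 TPM against 1.03 to 2.02, and their IL10 3.09 to 4.19 TPM against 1.09 to 5.75. Their IL18 was 36.7 to 84.2 TPM against 7.65 to 22.6, and their IL6 was 11.8 to 17.6 TPM against 12.3 to 37.2. The ranges of IL6, IL10, IL15, TNFSF12 and CSF1 overlapped between the 2 sets. How many other genes had ranges apart was not counted. Without the 3 libraries, TNF (0.77 ± 0.24, adjusted p = 0.0214) and IL10 (1.27 ± 0.41, adjusted p = 0.0244) were called higher in WL than in NC. IL10 passed the filter there only through WL, so its call is a description. IL18 was no longer called (0.42 ± 0.23, adjusted p = 0.162) and TGFB1 had the other sign (-0.19 ± 0.24). Of all 14116 PCGs tested without the 3 libraries, 1373 were higher and 1913 lower. In WL against WG, none of the 8 was called without the 4 libraries: IL18 stood at 0.11 ± 0.22, IL6 at -0.68 ± 0.37 (adjusted p = 0.229) and CSF1 at -0.78 ± 0.30 (adjusted p = 0.0859). Of all PCGs, 381 were then higher and 436 lower of 13889. The 4 calls of WG against NC in MAD were the same 4 genes without the WG library of this kind, and IL10 among them passed the filter only through WG.

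**Figure D3:**
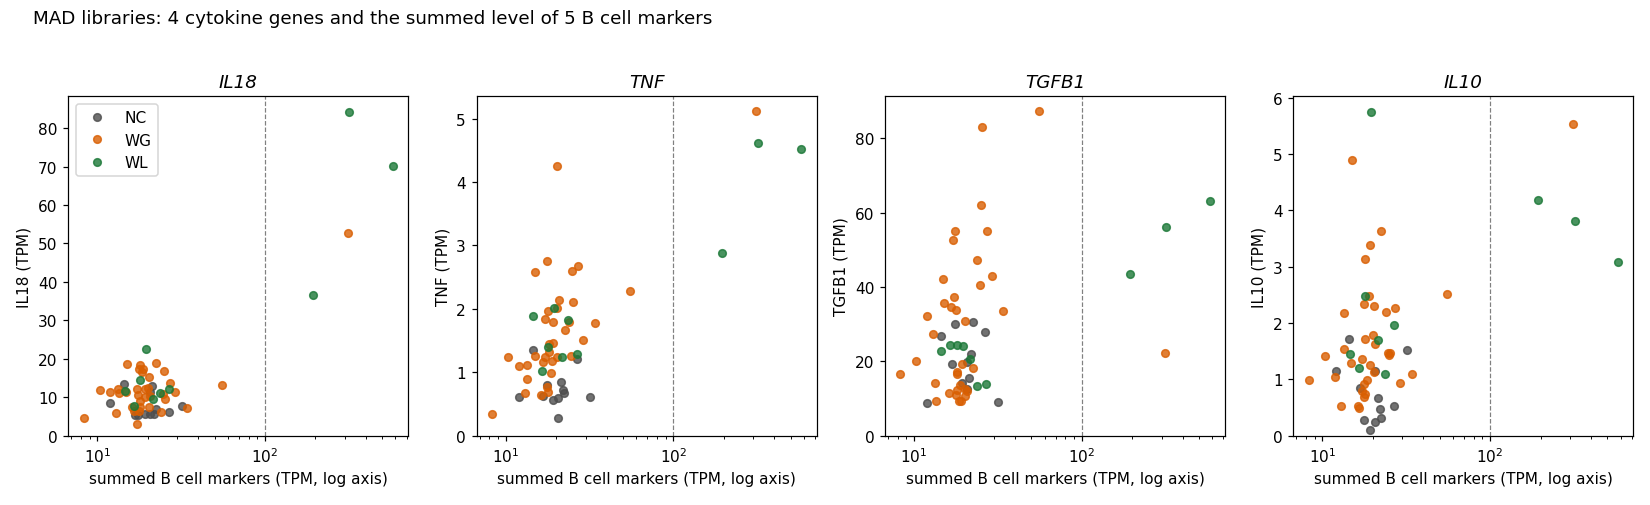
MAD libraries, 1 point each, with the summed TPM of 5 B cell markers on a log horizontal axis and the TPM of IL18, TNF, TGFB1 or IL10 on the vertical axis. The 3 WL libraries and 1 WG library to the right of the dashed line at 100 TPM have the 4 highest IL18 values, and for TGFB1 and IL10 other libraries reach as high.

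Marker genes of leukocytes moved with the cytokine genes in MAD, and in RAD only part of the macrophage markers did. Their part in the results was not tested. In MAD, 7 of the 10 macrophage markers were higher in WL than in NC and all 10 were higher in WG, with summed levels of 240 to 931 TPM in NC, 383 to 2137 in WG and 651 to 2097 in WL. In RAD it was 5 of 10 in both comparisons, with 259 to 1005 TPM in NC, 454 to 2877 in WG and 782 to 1887 in WL. In GOM, 3 of the 10 were lower in WL than in NC and none higher (554 to 2700 TPM in NC and 782 to 2294 in WL), and in ULB none was called (522 to 1055 and 683 to 2045 TPM). The median sum was nonetheless higher in WL than in NC in each AT. It was 513 and 1449 TPM in NC and WL in MAD, 654 and 1192 in RAD, 1158 and 1673 in GOM, and 758 and 1404 in ULB. Of the 7 T and NK cell markers, 6 were higher in WL than in NC in MAD, 1 in GOM, 2 in ULB and none in RAD, where 1 was lower. Of the B cell markers, 4 of 5 were higher in MAD, 1 of 3 tested was higher and 1 lower in GOM, while RAD had 1 lower of 2 tested and ULB 1 lower of 3. Of the 6 adipocyte markers, LEP was higher in WL in each AT, CIDEC and FABP4 also in GOM, while ADIPOQ was lower in MAD and RAD and PLIN1 and LIPE in MAD. Neutrophil markers gave 1 lower of 3 tested in MAD and in RAD (S100A12), mast cell markers none, endothelial markers 1 or 2 higher of 4 in each AT and CDH5 lower in GOM and RAD, and the 1 mesothelial marker with a row (WT1) was lower in MAD and RAD. No marker gene with a row was at 0 in every library of a group. Without the 3 WL libraries, 4 of the T and NK cell markers, 6 of the macrophage markers and 0 of the B cell markers were called higher in MAD. In that setting, 1373 of 14116 PCGs were higher and 1913 lower. Among all PCGs the shares were, for WL against NC, 15.2% higher and 17.8% lower in MAD, 10.2% and 16.6% in RAD, 15.4% and 20.7% in GOM, and 5.39% and 9.37% in ULB, and for WG against NC 5.38% higher in MAD and 7.10% in RAD.

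The share of TPM on PCGs also moved with the groups. With only the libraries of at least 88%, TNF alone remained called in MAD (of 10 NC and 4 WL libraries) and IL10 alone in RAD (of 6 and 8). In GOM, TGFB1, CSF1 and IL15 were then called, TGFB1 at -1.62 ± 0.17 (adjusted p = 0.00107), but with only 2 NC and 4 WL libraries. Of all PCGs, 2842 were then higher and 2747 lower of 14794 in GOM, so the count there lay near that of all genes. The numbers were 746 and 976 of 14097 in MAD and 711 and 1338 of 13788 in RAD. In ULB, IL10 remained called in WL against WG, where 339 of 13755 PCGs were higher and 690 lower.

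Levels also differed between ATs within a group. Within WL, 5 of the 8 cytokine genes differed among ATs (34.7% of all PCGs did): CSF1, IL15, IL18, IL6 and TGFB1. Within WG it was 6 of 8 (57.1%), that is, all but TGFB1 and TNFSF12, and within NC 3 of 8 (34.6%): CSF1, IL18 and TGFB1. With the replicate number as a block, TGFB1 was also called within WG (adjusted p = 0.00959), and within WL TNF was called (adjusted p = 0.0386) and TGFB1 was not (adjusted p = 0.0806). IL6 was lowest in GOM. In WL it was 1.10 higher in MAD (adjusted p = 0.0167), 1.83 in RAD (adjusted p = 3.47e-05) and 1.52 in ULB (adjusted p = 0.000305) on the log2 scale, and in WG 1.48, 1.99 and 1.68 higher. MAD, RAD and ULB did not differ from each other past the threshold in either group (adjusted p of 0.0983 to 0.726), but with the block RAD was 0.55 above MAD in WG (adjusted p = 0.0156). In NC the order was not called (adjusted p = 0.455). CSF1 was highest in ULB, which in WL was 1.03 above GOM, 0.90 above MAD and 0.79 above RAD (adjusted p = 0.0011, 0.0046 and 0.0465), and in NC 1.04 above MAD (adjusted p = 0.0112). IL10 was 0.68 lower in ULB than in GOM in WG (adjusted p = 0.000118), and no pair of ATs differed in WL (adjusted p of 0.548 to 0.992). IL18 had its lowest fitted level in ULB in each group, and in NC it was 1.42 lower there than in GOM (adjusted p = 0.00368). IL15 was 0.68 higher in RAD than in GOM in WL (adjusted p = 0.00492) and 0.51 higher in WG (adjusted p = 1.53e-05). TGFB1 was highest in GOM in NC, 0.74 above MAD and 1.10 above ULB (adjusted p = 0.0263 and 0.00995). In WL it was highest in MAD, where RAD lay 0.81 lower (adjusted p = 0.0364) and ULB 0.75 lower (adjusted p = 0.0355), and without the 3 libraries rich in B cell markers the difference among ATs in WL was not called (adjusted p = 0.873).

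Of 42 receptors, activating proteins and signalling genes of these pathways, 40 had a row. From NC to WL, 13 of the 40 tested were called higher and 1 lower in MAD (7 and 2 without the 3 libraries), 5 of 39 higher and 6 lower in RAD, 3 of 40 higher and 8 lower in GOM, and 5 of 39 higher and 1 lower in ULB. The median log2 changes were 0.33, 0.17, 0.02 and 0.12. In percent, 32.5 rose and 2.50 fell in MAD, 12.8 and 15.4 in RAD, 7.50 and 20.0 in GOM, and 12.8 and 2.56 in ULB. The shares of all PCGs given above for these comparisons were 15.2 and 17.8, 10.2 and 16.6, 15.4 and 20.7, and 5.39 and 9.37, so the counts in RAD lay near those of all genes and those in GOM at or below them. Without the 3 libraries, 1373 of 14116 PCGs were higher in MAD and 1913 lower. On the high-fat diet 10 of 38 pathway genes were called higher in MAD and 11 of 39 in RAD, none of 38 was called in ULB, and GOM had 3 higher and 2 lower of 40, where all PCGs had 5.38%, 7.10% and 0.507% higher and, in GOM, 12.2% higher and 14.5% lower.

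Among receptors, TNFRSF12A, through which TNFSF12 acts, was higher in WL than in NC in each AT, while its ligand was not called. In ULB it went from 3.15 to 17.5 TPM in NC (median 7.88) to 13.1 to 79.2 in WL (35.1), a log2 change of 1.82 ± 0.46, and the changes in GOM, MAD and RAD were 0.99 ± 0.28, 1.04 ± 0.38 and 1.42 ± 0.35 (adjusted p of 0.0025 to 0.0292). IL1RAP, the accessory chain that IL1B needs to signal, was lower in each, with changes of -1.05 ± 0.24, -1.39 ± 0.32, -1.07 ± 0.25 and -1.91 ± 0.45 in the same order (adjusted p of 0.000925 to 0.00796). Its ULB libraries held 7.24 to 128 TPM in NC and 7.43 to 30.5 in WL. IL6R, the binding chain of the IL6 receptor, rose in GOM (0.81 ± 0.16) and MAD (1.02 ± 0.20). Its levels in GOM were 21.99 to 47.1 TPM in NC and 41.1 to 124 in WL. The binding chain of the IL10 receptor, IL10RA, rose in MAD (1.37 ± 0.24), RAD (0.68 ± 0.18) and ULB (0.76 ± 0.22), whereas the second chain, IL10RB, fell in GOM (-1.04 ± 0.23) and RAD (-0.98 ± 0.24). The chains that receive IL15, IL2RB and IL2RG, fell in GOM (-1.12 ± 0.24 and -1.54 ± 0.30) and rose in MAD (1.12 ± 0.42 and 1.54 ± 0.46), and IL2RB also fell in RAD (-1.06 ± 0.24). Neither of these chains nor SOCS3, TNFAIP3 or IL18RAP was called higher in MAD without the 3 libraries rich in B cell markers.

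Of the proteins that activate IL18, CASP1 and its adaptor PYCARD were higher in WL in MAD (1.16 ± 0.26 and 1.65 ± 0.32), RAD (1.18 ± 0.34 and 1.27 ± 0.38) and ULB (0.87 ± 0.27 and 1.5998 ± 0.50). CASP1 was 1.59 to 10.2 TPM in NC and 7.74 to 27.4 in WL in MAD. In GOM neither was called (0.04 ± 0.33 and 0.68 ± 0.36). SMAD7, the inhibitor that TGFB1 signalling induces against itself, rose in each AT, with changes in the order GOM, MAD, RAD and ULB of 1.59 ± 0.16, 1.09 ± 0.28, 1.52 ± 0.28 and 0.97 ± 0.26. In GOM its libraries held 6.34 to 11.8 TPM in NC and 21.2 to 52.7 TPM in WL (adjusted p = 7.91e-08). RELA, a subunit of NF-kappa B, and BCL3, its nuclear partner, fell in GOM (-0.90 ± 0.16 and -1.30 ± 0.27) and RAD (-0.80 ± 0.22 and -1.36 ± 0.34).

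**Figure D4:**
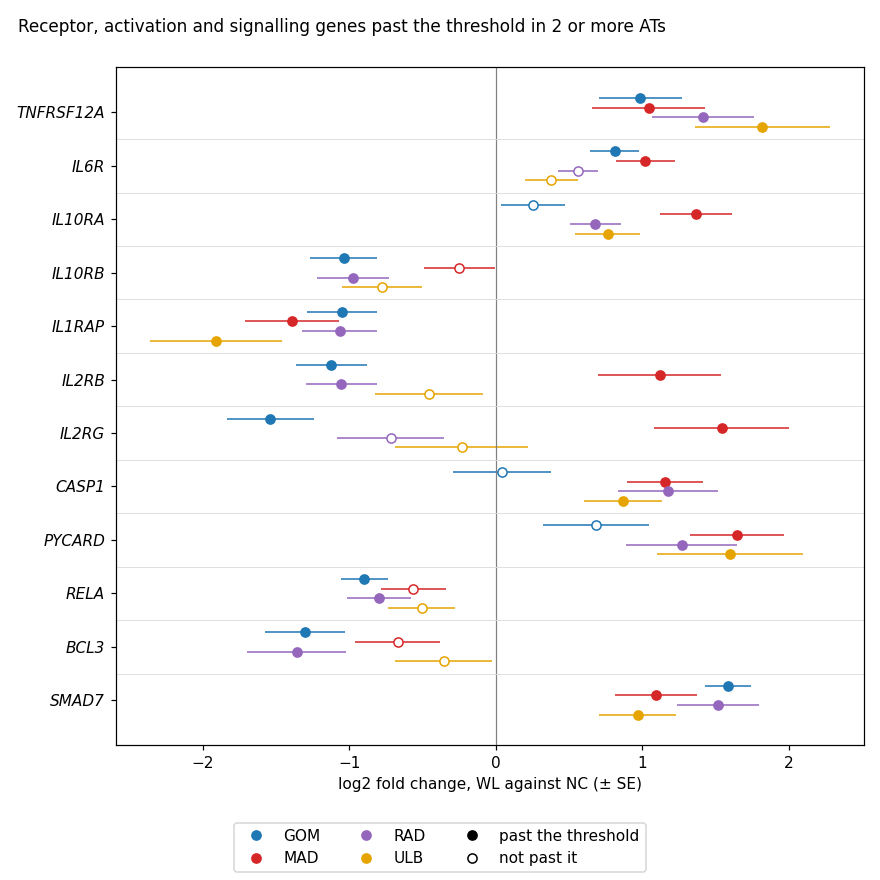
Log2 fold change ± SE of WL against NC for the 12 receptor, activation and signalling genes called in 2 or more ATs, with filled points for those past the threshold. SMAD7 and TNFRSF12A lie to the right and IL1RAP to the left in each AT, and IL2RB and IL2RG lie on opposite sides in GOM and MAD.

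Chromatin at the genes was read from the A-B index of the 20-kb bin that holds each start, where a positive value marks the active A compartment. The index had no missing bin, and 9 of the 10 genes had a position. The mean index was positive in each of the 12 groups for 8 genes and lay between 1.17 (IL6 in NC ULB) and 6.44 (TNFSF12 in WG ULB). The bin of IL1B (chr3:43660001-43680000 on Sscrofa11.1) was the exception, with a negative mean in all 12 groups, the lowest in NC GOM (-1.66) and the highest in WG RAD (-0.47). From NC to WL the index rose past the threshold, an adjusted p below 0.05 by limma and a difference above 0.75, for TGFB1 in GOM, for IL6, TGFB1, TNFSF12 and CSF1 in MAD, for IL6, TGFB1 and TNFSF12 in RAD, and for IL6, IL10 and IL18 in ULB. None of the 9 fell. Of all bins, 9.59% rose and 0.516% fell in GOM, 9.83% and 1.36% in MAD, 15.2% and 0.589% in RAD, and 11.6% and 2.02% in ULB, and the median difference of all bins was 0.14, 0.10, 0.28 and 0.14.

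IL6 had the largest rise in RAD of the 9 genes, from 0.792 to 2.08 in the 12 NC samples (mean 1.39) to 2.12 to 2.97 in the 10 WL samples (mean 2.68), a difference of 1.29 ± 0.16 (adjusted p = 1.03e-06). In MAD and ULB it rose by 1.08 ± 0.19 and 1.01 ± 0.20, and in GOM the difference of 0.66 ± 0.22 was under the limit. TGFB1 rose by 0.95 ± 0.18 in GOM (adjusted p = 0.00167), where its expression fell, and by 1.08 ± 0.15 in MAD and 1.00 ± 0.15 in RAD, where its expression was not called. IL10 rose by 1.27 ± 0.27 in ULB, from 1.17 to 1.95 in the 5 NC samples to 2.07 to 3.50 in WL. When the index was quantile-normalized across samples, only IL6 in RAD (0.93 ± 0.16, adjusted p = 0.000105) and IL10 in ULB (0.82 ± 0.24, adjusted p = 0.0251) stayed past the threshold.

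**Figure D5:**
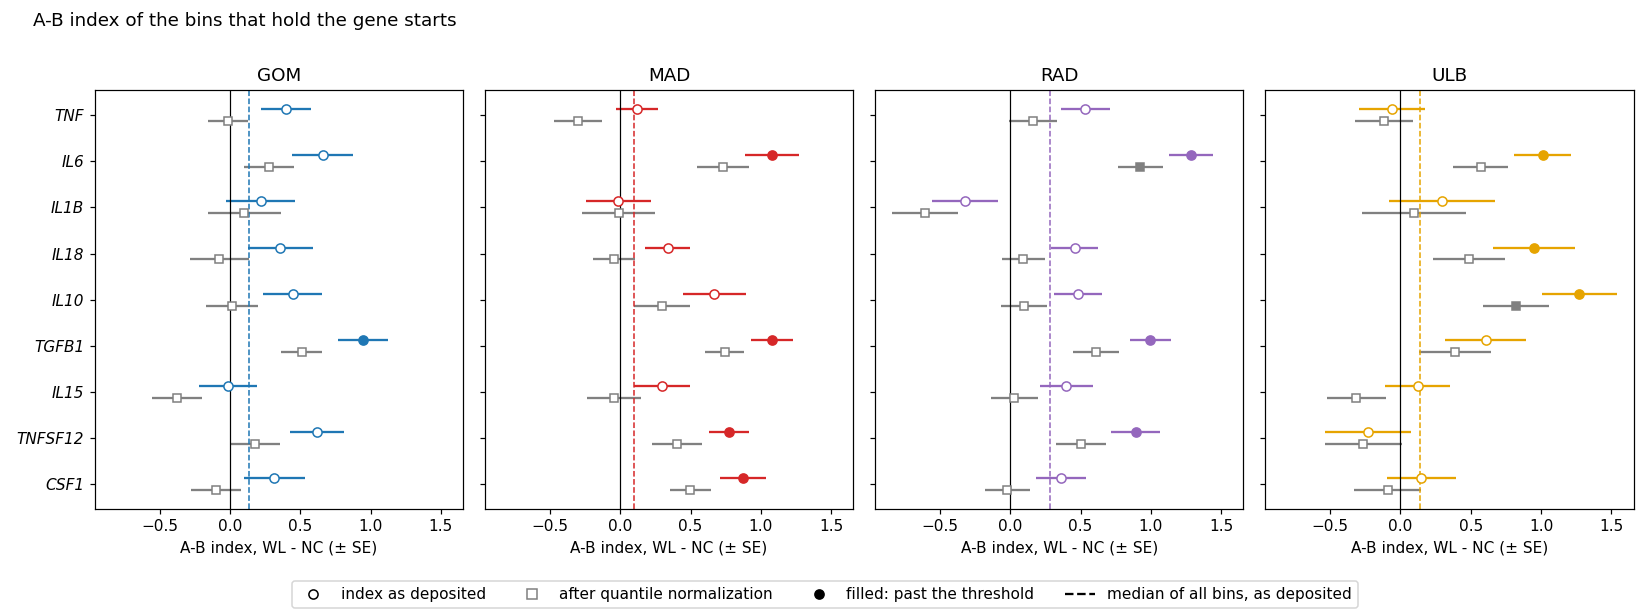
Difference in A-B index ± SE between WL and NC for the bins of 9 cytokine gene starts in each AT, as deposited (circles) and after quantile normalization (grey squares), with filled symbols past the threshold and a dashed line at the median of all bins. Most circles lie to the right of the dashed line, and only IL6 in RAD and IL10 in ULB have filled squares.

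The deposited tables of H3K27ac regions, a mark of active enhancers, hold 18 sets, most of them pooled from several libraries. They allow a description and no test. The labels give 1 H3K27ac library for NC MAD and 1 for a WG set of RAD, so the IL6 ranks there each rest on 1 library. A region lay within 10 kb of the gene in all 18 tables for CSF1, TGFB1, TNFSF12, IL15 and IL18, in 17 for TNF, IL6 and IL10 and in 14 for IL1B, beside 65.2% to 85.6% of the 18708 genes of the annotation in 1 table. Super-enhancers, the regions with the most signal, were at CSF1 in all 18 tables, at TGFB1 and TNFSF12 in 13, at TNF in 6, at IL10 in 2, at IL15 in 1, and at IL18, IL6 and IL1B in none, beside 5.72% to 27.8% of all genes. TNF had its super-enhancers in the 4 NC tables, in 1 of WG (MAD) and in WL GOM. The region at IL6, ranked by signal, stood at 51.0%, 49.7% and 53.3% of the ranking from the top in NC MAD, RAD and ULB and at 12.8%, 14.2% and 13.5% in WL, whereas in GOM it stood at 12.7% in NC and 18.7% in WL. In WG it stood at 21.1% to 31.4% in the 3 tables of MAD, 14.6% and 17.1% in RAD, and 21.3% in 1 table of ULB, the other holding no region at IL6. These ranks compare tables of 18143 to 25819 regions, and the region at IL6 itself was 9.40 to 10.4 kb long in NC MAD, RAD and ULB and 30.4 to 74.4 kb in WL. A region covered the annotated start in 18 tables for CSF1, 16 for IL6, 17 for TNF and 15 for TGFB1, whose upstream sequences are printed above.

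Over the 236 libraries, the 3 genes that ranked most like each cytokine gene (Spearman's rho of TPM, a description across libraries that share diet and AT) were found among PCGs above 0.5 TPM. IL6 was most like VMP1 (rho 0.79), JUNB (0.79) and SOCS3 (0.77), of which JUNB is a subunit of AP-1 and SOCS3 the feedback inhibitor of IL6 signalling. CSF1 was most like RUNX1 (0.82), TNFRSF1B (0.82) and SLC7A1 (0.81), and TGFB1 most like MIDN (0.94) and INPP5D (0.93) after a gene with no symbol. TNFSF12 was closest to CRIP2 (0.86) and ARHGDIA (0.85), TNF to ARHGAP30 (0.65), LRRC25 (0.64) and PLEKHO2 (0.61), IL18 to ME2 (0.73), ERAP1 (0.72) and PRCP (0.70), IL15 to GPIHBP1 (0.70), NOXO1 (0.67) and ALS2CL (0.65), and IL10 to RHOH (0.66) among genes with a symbol. Of these 24 genes, 4 of which have no symbol, 18 stayed among the 3 most alike when only libraries with at least 88% of TPM on PCGs were used. Among the cytokine genes themselves, TGFB1, CSF1 and TNFSF12 ranked together (rho 0.63 to 0.69), IL10 went with IL18 (0.57), and IL6 had its highest rho with CSF1 (0.38). The mRNAs of TGFB1, CSF1 and TNFSF12 are 58.8%, 61.4% and 66.3% GC, against a median of 50.8% over genes. In WG these 3 also followed the share of TPM on PCGs and the GC tilt, as given above. The part of these measures in their likeness was not tested.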

How the data were processed

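RNA was analysed in 236 libraries and chromatin compartments in 240 Hi-C samples, grouped by the diet and AT in the labels. The authors deposited estimated counts and TPM per gene from kallisto 0.43.0 and an A-B index score per 20-kb bin (113298 bins on 18 autosomes). They also deposited SICER regions of H3K27ac with their ROSE signal, from libraries aligned with BWA 0.7.15 and SAMtools 1.3.1 and mostly pooled. Genes and bins are on Sscrofa11.1. TPM were scaled over PCGs and non-coding transcripts together. TNF was matched by the identifier in the source data of the study, the other genes by symbol. In each table of expression, 9 columns (2 headed NC GOM and 7 headed NC ULB) matched no sample and were not used, and 9 of the A-B index table likewise. No pair of libraries within a group held identical values.

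Estimated counts, rounded to whole numbers, were tested with edgeR 4.0.16 (TMM, quasi-likelihood test, R 4.3.3) for genes above 0.5 TPM in at least 80% of the libraries of a group, and the A-B index with limma 3.58.1. P-values were adjusted by Benjamini-Hochberg over all PCGs or bins. Interactions and differences among ATs were edgeR F tests over the 4 ATs. The tests were checked on simulated data. Receptor, activation and signalling genes named are those called in 2 or more ATs in WL against NC, and the genes most alike are the 3 with the highest Spearman's rho. The members and lists were chosen with earlier results of these data known. Other settings tried were RLE size factors, DESeq2 1.42.0, the exact test of edgeR, no filter, a replicate block, the library set as a term or only libraries of at least 88%, and leaving out each NC library of ULB. A GC tilt term and leaving out libraries that stood apart or were rich in B cell markers were added after seeing the data. Same-numbered samples did not deviate together in any comparison of diets, but did between ATs in WG (median r of 0.56 to 0.64 over numbers). The number of libraries, 5 in NC ULB, and the counts on PCGs, 3337098 to 22939420 per library, limit the precision.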

Additional observations from a re-analysis of the deposited data

Results flagged for a closer look

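Among groups of 4 to 10 samples, each cytokine gene taken by itself, 9 had a highest or lowest sample that stood apart from the rest by Dixon's test. This is 8.82% of the groups tested, and chance gives about 5%. In expression, the libraries were replicate 9 of WL ULB for CSF1 (134 TPM, the others 32.4 to 75.1), replicate 8 of WL ULB for IL6 (84.3 TPM, the others 5.87 to 35.4), replicate 2 of WL RAD for IL15 (65.7 TPM, the others 19.6 to 43.2) and replicate 8 of NC GOM for IL10 (3.91 TPM, the others 1.03 to 2.28). In the A-B index, they were replicate 9 of WL GOM for IL18 (1.5997, the others 2.45 to 3.40), replicate 10 of WL MAD for IL6 (1.67, the others 2.29 to 2.78), replicate 7 of WL RAD for IL6 (2.12, the others 2.57 to 2.97), replicate 7 of WL GOM for TNF (6.42, the others 5.28 to 5.84) and replicate 10 of WL ULB for TNFSF12 (7.04, the others 4.89 to 5.85). The change of TGFB1 from NC to WL differed between ATs in edgeR's quasi-likelihood F test (adjusted p = 0.0376).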

How the results depend on the processing

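Of 304 refitted log2 fold changes of the 8 cytokine genes in WL against NC, 275 kept their direction and their side of the threshold, 6 lost a call, 8 gained one and 15 changed sign. With only libraries of at least 88% of TPM on PCGs, the number of cytokine genes called in WL against NC was 3 in GOM, 1 in MAD and 1 in RAD, in WG against NC 1 in RAD, and in WL against WG 0 in MAD. In that last comparison, only 54 of 13713 PCGs were higher and 76 lower. With the library set as a term, the number of cytokine genes called was 1 in WG against NC in GOM and in RAD, 1 in WL against WG in GOM and in MAD, and 1 in WL against NC in RAD (IL10), and the interaction was called for 0 genes. With the GC tilt as a term it was 2 in WL against NC in GOM, 1 in WG against NC in GOM, 1 in WL against WG in GOM and 2 in RAD. DESeq2 called 1 in WL against WG in GOM, 2 in RAD and 2 in the interaction (TGFB1 and IL18). WL against WG in RAD gave 2 with edgeR's exact test and 0 without a filter. Without the libraries rich in B cell markers, the interaction and WL against WG in MAD gave 0. Of all PCGs, 257 of 15032 were then called in the interaction, and 381 rose and 436 fell of 13889 in WL against WG. With the replicate block, WG against NC gave 0 in MAD and 1 in RAD, WL against WG 1 in MAD but 0 in RAD and 0 in ULB, and WL against NC 4 in RAD and 4 in MAD. Of all PCGs, this block called 11 higher and 2 lower of 13845 in WG against NC in MAD, so hardly any gene was called there. The counts were 389 and 409 of 13571 in RAD. In WL against WG they were 1031 and 1250 of 13918 in MAD, 407 and 629 of 13548 in RAD, and 434 and 576 of 13633 in ULB. In WL against NC they were 1490 and 1864 of 13782 in RAD and 1824 and 1844 of 14170 in MAD. Same-numbered samples of different diets are different pigs and share only a number. Between ATs, every pair of the same number had a correlation above 0.1 only for MAD with ULB and RAD with ULB in WG, MAD with RAD in WL and GOM with ULB in NC, and the block gave 7 of the 8 genes differing among ATs within WG, 5 within WL and 3 within NC. In WL against NC in MAD, IL18 was not called with the library set as a term (0.97) or with at least 88% (0.64), where IL10 (1.32) was not called either, and IL6 in RAD was not called under both (0.82 and 0.84). Signs changed only for values that had not passed the threshold: with at least 88%, IL18 in GOM (-0.23), TGFB1 (-0.44) and TNFSF12 (-0.081) in MAD; with the GC tilt, IL6 (0.10) and TNFSF12 (-0.075) in GOM, TNFSF12 in MAD (-0.039), and TGFB1 (-0.0085) and CSF1 (-0.042) in ULB; with the block, CSF1 in RAD (0.046); without the B cell libraries, TGFB1 in MAD (-0.19). Leaving out 1 NC library of ULB in turn gave no call, with TNF from -0.16 to 0.32, TGFB1 from -0.091 to 0.22 and CSF1 from -0.068 to 0.20. The A-B index gave, after quantile normalization, 1 in RAD and 1 in ULB but 0 in GOM and 0 in MAD. With a limit of 0.5 instead of 0.75 it gave 3 in GOM, and as a mean over the bins of each gene 0 in GOM and 2 in MAD. In ULB, leaving out 1 NC sample gave 2 to 3. With the replicate block it gave 0 in ULB, but there 0 of all 113298 bins were called. That setting therefore says nothing about these genes in particular. Within 50 kb, a region was found in 162 of 162 pairs of gene and table, against 155 within 10 kb. The causes were not tested.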
